A study of Mus musculus with 9 samples.

Results

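Transcript levels of 10 tubulin genes were examined in growing mouse oocytes that carried an XX, an XO or an XY sex chromosome complement. The genes were chosen by name from the 28052 genes of the deposited count table, and they are 4 alpha tubulins (Tuba1a, Tuba1b, Tuba1c and Tuba4a), 5 beta tubulins (Tubb2a, Tubb2b, Tubb4b, Tubb5 and Tubb6) and the gamma tubulin Tubg1. RNA was sequenced in 9 samples, 3 for each genotype, and each sample was a pool of 30 oocytes, 10 of 50–55 µm and 20 of 55–60 µm in diameter, taken at 18 days postpartum. The XY females came from B6.YTIR males, whose Y chromosome of Tirano origin leads to ovaries on the C57BL/6J (B6) background, and the XX females were their littermates. The XO females came from another cross, of Paf carrier males, from a C3H/HeSnJ stock backcrossed to B6, with B6 females, so that the XO complement and the origin of the animals cannot be told apart. The samples of a genotype are described as biological triplicates, and the number of females behind a pool is not given in the sources used here.

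Alpha and beta tubulin form the heterodimers from which microtubules are built, and gamma tubulin, in a ring-shaped complex, starts new microtubules. Several genes code for alpha and for beta tubulins that differ little in sequence, most of all near the acidic carboxy-terminal tail, where enzymes add or remove glutamate and tyrosine residues. A growing oocyte keeps a network of microtubules in its cytoplasm and stores the messages and proteins from which the spindles of the meiotic divisions are later assembled.

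The alpha tubulins Tuba1a, Tuba1b and Tuba1c lie near each other on chromosome 15 (GRCm38), at chr15:98949841-98953551, chr15:98931425-98934565 and chr15:99029891-99038105. Tuba4a is on chromosome 1, Tubb4b on chromosome 2, Tubb2a and Tubb2b on chromosome 13, Tubb5 on chromosome 17 and Tubg1 on chromosome 11, and none of the 10 genes is on the X or Y chromosome. The first 30 coding bases of the alpha tubulins (Gencode vM21, GRCm38) show how alike these genes are, and capitals mark bases that differ from Tuba1b:
Tuba1b: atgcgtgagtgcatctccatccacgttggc
Tuba1c: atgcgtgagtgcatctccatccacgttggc
Tuba1a: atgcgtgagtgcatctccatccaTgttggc
Tuba4a: atgcgCgagtgcatTtcAGtccaTgtGggG
Over the whole coding sequence, Tuba1b was identical to Tuba1a at 98.3%, to Tuba1c at 97.9% and to Tuba4a at 85.1% of the aligned positions. Among the beta tubulins, Tubb2a and Tubb2b shared 96.5% of the positions, and the other pairs shared between 80.2 and 84.5%. Reads placed in the coding sequence could thus be split between copies, since 95.9% of the 50-base stretches of the Tuba1b coding sequence, 90.3% of those of Tuba1a and 90.8% of those of Tuba1c also occurred in transcripts of other genes. The corresponding share was 2.39% in Tuba4a, 60.2% in Tubb2a, 65.2% in Tubb2b, 61.3% in Tubb4b and 0.0779% in Tubb5, and none was found in Tubb6. The counts used here come from the 5′ ends of transcripts, and none of the 50-base stretches in the first 150 bases of these 10 transcripts occurred in a transcript of another gene. How the authors treated reads with several matches is not given in the sources used here, and so the levels of Tuba1a, Tuba1b and Tuba1c relative to each other carry this uncertainty.

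Promoter sequences of RefSeq (GRCm38.p6) were found for 7 of the 10 genes, and the 250 bases before the start are shown for Tuba1c, the alpha tubulin with the most UMIs, and for Tubb4b, the beta tubulin with the most UMIs among the 10 genes. The CCAAT motif, in either direction, is in capitals:
Tuba1c, chr15:99029641-99029890, plus strand: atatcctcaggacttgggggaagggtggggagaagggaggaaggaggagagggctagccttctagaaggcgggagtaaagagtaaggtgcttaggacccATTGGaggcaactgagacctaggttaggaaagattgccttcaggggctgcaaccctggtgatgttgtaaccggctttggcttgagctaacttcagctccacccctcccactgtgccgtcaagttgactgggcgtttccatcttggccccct
Tubb4b, chr2:25224703-25224952, minus strand: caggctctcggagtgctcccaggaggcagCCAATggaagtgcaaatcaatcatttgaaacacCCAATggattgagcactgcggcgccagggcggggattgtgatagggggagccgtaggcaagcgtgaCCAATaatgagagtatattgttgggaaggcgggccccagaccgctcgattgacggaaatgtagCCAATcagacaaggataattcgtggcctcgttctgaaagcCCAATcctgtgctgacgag
The Tubb4b promoter held 5 copies of CCAAT, Tubb5 held 2, Tuba1a and Tuba1c held 1 each, and Tuba1b, Tuba4a and Tubb2a held none in these 250 bases. CCAAT was thus found in 4 of 7 tubulin promoters, and in 33.8% of all 32851 promoters of the same length. These matches describe the letters only.

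Between 2130145 and 3157338 unique molecular identifiers (UMIs), which count each captured transcript once, were assigned to genes per sample, and the ERCC spike-in RNAs made up 0.204–0.862% of all UMIs. Levels are given as normalized CPM, that is, the share of a gene in the gene UMIs of a sample, as CPM, divided by the spike-in factor of the sample. Since each transcript gives a single 5′ UMI, levels were compared between genes without division by length. Of 5 Y-linked genes, Ddx3y, Eif2s3y, Uty, Kdm5d and Zfy1, each had between 62 and 486 UMIs in every XY sample and at most 2 UMIs in every XX and XO sample, as the labels state. XO2 and XO3 stood apart from XO1. Of the 10993 genes tested, 31.9% were higher in both XO2 and XO3 than in each of the other 7 samples, and 26.5% were lowest in XO1. The counts of tubulins that differed from XO oocytes are therefore given with and without XO1. Since XO1 was set aside for its values, p-values and counts without it describe the remaining samples and do not hold as tests.

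The alpha tubulins Tuba1b and Tuba1c, which are expressed in most tissues, were the most variable of the 9 tubulins that passed the filter on low counts. Tuba1c was at 22.1, 30.8 and 54.2 normalized CPM in XX1, XX2 and XX3, at 20.2, 468 and 1284 in XO1, XO2 and XO3, and at 19.5, 36.8 and 79.7 in XY1, XY2 and XY3. Tuba1b followed with 22.8, 28.0 and 45.4 normalized CPM in the XX samples, 11.9, 395 and 1007 in the XO samples, and 21.4, 37.1 and 86.0 in the XY samples. For both genes XO2 and XO3 were far above the other 7 samples, whereas XO1 lay within or below the range of XX and XY oocytes. XO3 exceeded XO1 63.6-fold for Tuba1c, which rested on 2275 against 39 UMIs, and 84.5-fold for Tuba1b, on 1783 against 23 UMIs. The coefficient of variation over the 9 samples was 189% for Tuba1c and 180.2% for Tuba1b, higher than for 99.8 and 99.7% of all tested genes, respectively. In pooled oocytes, more RNA of a gene per oocyte and a different make-up of the pool cannot be told apart, here and in all results that follow.

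The other alpha tubulins were less abundant and showed a like order of samples. Tuba4a, a gene otherwise known from muscle and brain, was at 8.90, 7.0 and 17.1 normalized CPM in XX oocytes, 6.21, 36.7 and 89.2 in XO oocytes and 3.25, 7.16 and 19.0 in XY oocytes. Tuba1a, the main alpha tubulin of developing neurons, was at 3.56, 2.45 and 5.48 normalized CPM in XX oocytes, 1.04, 18.1 and 55.3 in XO oocytes and 0.930, 3.91 and 12.1 in XY oocytes. Within XX and XY oocytes, replicate 3 was the highest sample for each of the 4 alpha tubulins. The Tuba1a values in XO1 and XY1 rested on 2 UMIs each.

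**Figure D1:**
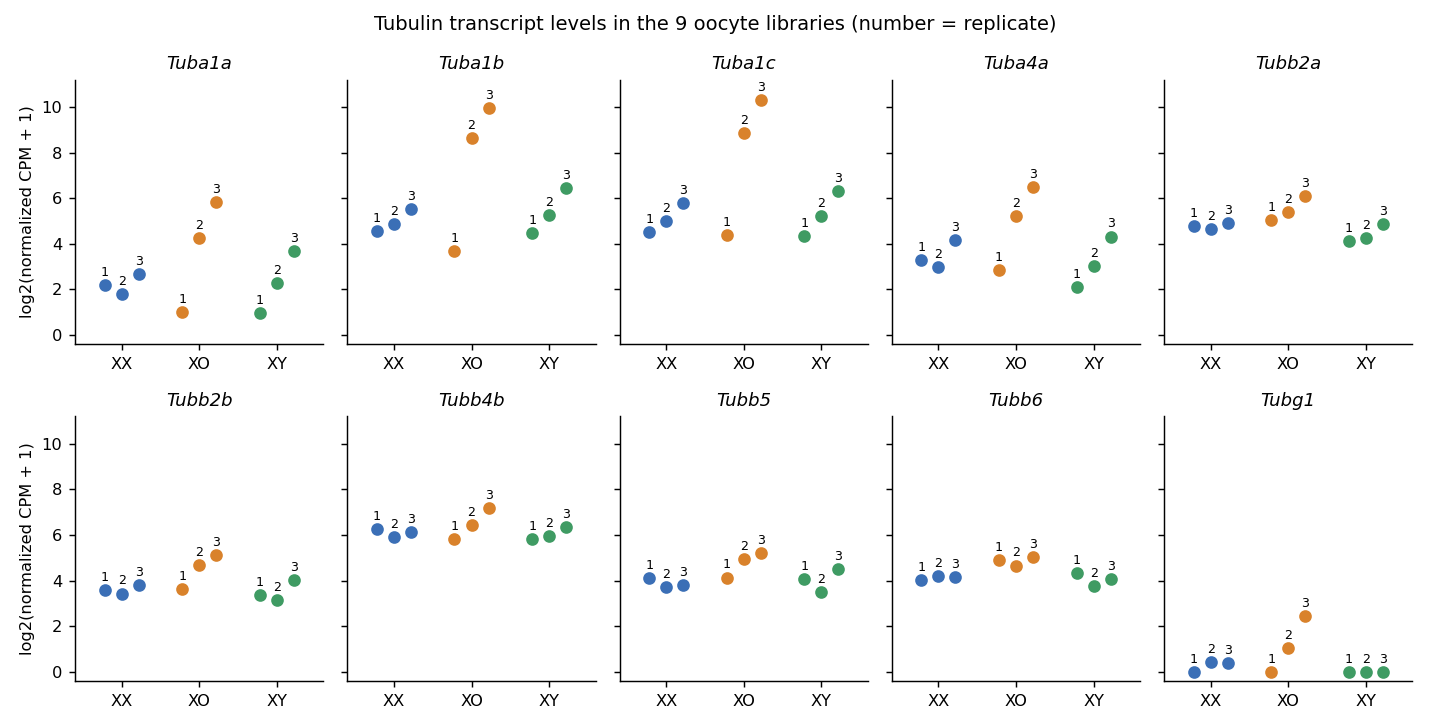
Level of each of the 10 tubulin genes as log2(normalized CPM + 1) in the 3 XX, 3 XO and 3 XY samples, with the replicate number above each point. XO2 and XO3 lay above the other 7 samples for each tested gene but Tubb6, for which XO1 was as high as the other XO samples. Tubg1 was not tested, and its points rest on 2 UMIs in XO2, 8 in XO3 and at most 1 in any other sample. Of all tested genes, 31.9% had XO2 and XO3 above the other 7 samples.

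The beta tubulins varied less. Tubb4b, a broadly expressed beta tubulin that is also used in cilia, was at 75.9, 59.9 and 69.8 normalized CPM in XX oocytes, 55.4, 86.3 and 143 in XO oocytes and 56.2, 61.2 and 79.7 in XY oocytes. Its highest sample exceeded its lowest 2.58-fold, and 36.4% of tested genes had a lower coefficient of variation. Tubb2a, known best from neurons, was at 26.7, 23.8 and 28.9 normalized CPM in XX oocytes, 31.6, 40.8 and 66.6 in XO oocytes and 16.3, 17.9 and 28.4 in XY oocytes. All 3 XO samples were thus above all XX and XY samples for Tubb2a in normalized CPM. Among all tested genes, the XO samples lay above all XX samples for 13.6% and above all XY samples for 6.34%. As a share of gene UMIs, XO1 (61 of 2306155) was below all XX samples, such as XX2 (68 of 2447443), and below XY3 (94 of 3157338).

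Its neighbour Tubb2b was at 11, 9.80 and 13.1 normalized CPM in XX oocytes, 11.4, 24.8 and 33.9 in XO oocytes and 9.30, 7.81 and 15.4 in XY oocytes, so that XO1 lay among the XX samples. Tubb5, a common beta tubulin of dividing cells, was at 16.4, 12.3 and 13.1 normalized CPM in XX oocytes, 16.6, 29.5 and 35.6 in XO oocytes and 15.8, 10.4 and 21.4 in XY oocytes. XO1 exceeded the highest XX sample by little and was below XY3. Tubb6, a more divergent beta tubulin of broad expression, was at 15.3, 17.5 and 16.8 normalized CPM in XX oocytes, 29.0, 24.3 and 31.6 in XO oocytes and 19.1, 12.7 and 16.0 in XY oocytes. Here XO1 was as high as the other XO samples, and all 3 were above the XX and XY samples in normalized CPM. As a share of gene UMIs, XO2 was below XX3. Each of Tubb5, Tubb6 and Tubb2b had between 20 and 71 UMIs per sample.

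Gamma tubulin message was near the limit of detection. Tubg1 had 0, 1 and 1 UMI in XX, 0, 2 and 8 UMIs in XO, and no UMI in the 3 XY samples, where a count of 0 allows up to 3 UMIs over the genotype, or a mean of 0.364 normalized CPM by counting error alone. It did not pass the filter on low counts and was not tested. Its paralog Tubg2 had more UMIs, at 1.78, 2.45 and 6.09 normalized CPM in XX oocytes, 2.59, 22.2 and 39.0 in XO oocytes and 0.930, 3.91 and 11.5 in XY oocytes. For Tubg2, XO2 and XO3 were thus higher than the other 7 samples. The Tubg1 transcript shared 18.9% of the 50-base stretches of its coding sequence with other genes.

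Among the 10 genes, Tubb4b was the highest in XX oocytes, at 68.5 ± 8.07 normalized CPM (SD, n = 3), and its samples did not overlap with those of the next, Tuba1c, at 35.7 ± 16.6. Tuba1c, Tuba1b (32.1 ± 11.8) and Tubb2a (26.5 ± 2.57) followed, and neighbours among these overlapped. After a gap below Tubb2a came Tubb6 (16.5 ± 1.11), Tubb5 (13.9 ± 2.18), Tubb2b (11.3 ± 1.67) and Tuba4a (11 ± 5.34), whose neighbours overlapped as well, and Tuba1a (3.83 ± 1.53) was lower without overlap. In XY oocytes Tubb4b was again at the top of the 10 genes with 65.7 ± 12.4, followed by Tuba1b (48.2 ± 33.7) and Tuba1c (45.3 ± 31.0), but all neighbours from Tubb4b to Tuba1a overlapped. In XO oocytes the order opened with Tuba1c at 591 ± 641 and Tuba1b at 471 ± 502, ahead of Tubb4b at 94.9 ± 44.3. All neighbours down to Tubb2b overlapped, and in XO1 itself Tubb4b was the highest of the 10 genes.

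The sum of the 4 alpha tubulins was at 57.3, 68.3 and 122 normalized CPM in XX oocytes, 39.3, 918 and 2435 in XO oocytes and 45.1, 85.0 and 197 in XY oocytes. The 5 beta tubulins summed to 145, 123 and 142 normalized CPM in XX oocytes, 144, 206 and 310.5 in XO oocytes and 117, 110.0 and 161 in XY oocytes. The alpha sum thus spanned a far wider range than the beta sum. The 10 genes together took 0.0154–0.193% of the gene UMIs of a sample.

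The share of alpha tubulin among alpha and beta UMIs does not depend on the scaling of a sample. It was 28.3, 35.6 and 46.3% in XX1, XX2 and XX3, 21.5, 81.7 and 88.7% in XO1, XO2 and XO3, and 27.9, 43.6 and 55.0% in XY1, XY2 and XY3. The 95% Wilson intervals, which cover counting error only, were 17.5–26.0% in XO1, 80.0–83.3% in XO2, 87.8–89.6% in XO3 and 52.2–57.8% in XY3, the highest of the other samples. Within this choice of genes, alpha UMIs outnumbered beta UMIs 4.46-fold in XO2 and 7.84-fold in XO3. In the other 7 samples the ratio was between 0.273 and 1.22. XO1 had the lowest and XO3 the highest share of the 9 samples, so the genotypes overlapped. The mean share in XO oocytes was 64.0%, and it was 85.2% without XO1 and 51.6% without XO3. The values depend on the choice of genes. With the other alpha and beta tubulins of the count table added, the share was 42.5, 48.6 and 54.5% in XX oocytes. It was then 29.1, 82.1 and 88.7% in XO oocytes and 38.4, 53.6 and 59.8% in XY oocytes. The ratio was then between 0.411 and 1.49 in the samples other than XO2 and XO3.

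**Figure D2:**
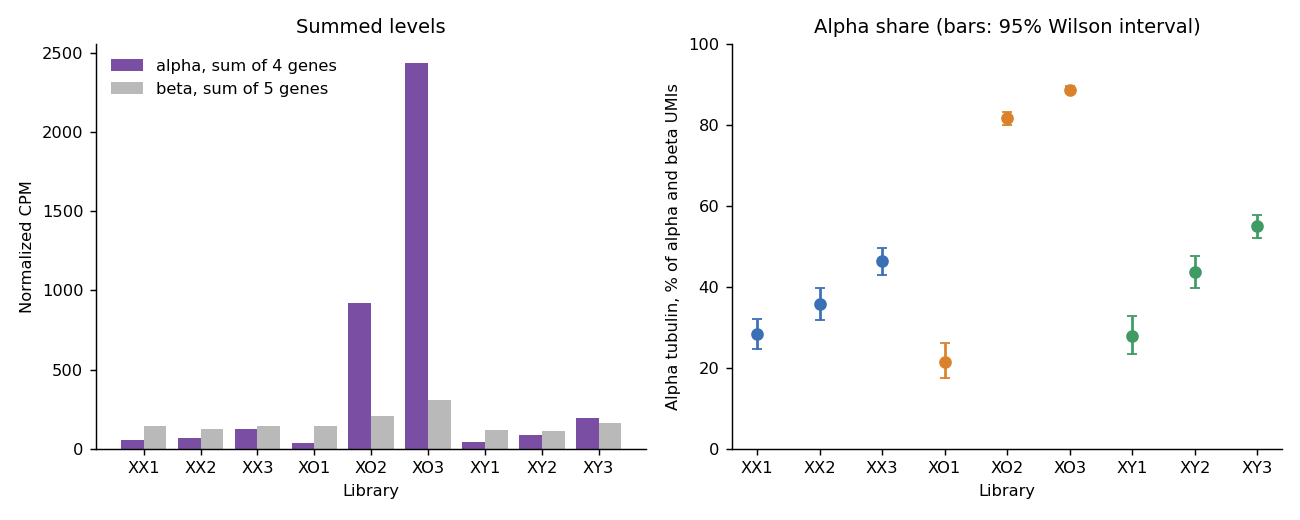
Left, summed normalized CPM of the 4 alpha and 5 beta tubulins in each sample. Right, alpha share of the UMIs of these same genes in percent with 95% Wilson intervals (XX blue, XO orange, XY green). The share was between 21.5 and 55.0% in 7 samples, and 81.7% and 88.7% in XO2 and XO3.

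Within each class the composition was steadier than the sums. Tuba1b and Tuba1c together made up between 78.3 and 94.1% of the UMIs of the 4 chosen alpha tubulins in the 9 samples. The alpha-like Tubal3, which is outside this choice, had between 39 and 158 UMIs per sample. In XX1 it had 142 UMIs, against 62 of Tuba1c and 64 of Tuba1b. Alpha and beta UMIs here are those of the chosen genes only. Tuba1c alone took 38.5–45.1% of the alpha UMIs in XX oocytes, 51.0–52.7% in XO oocytes and 40.5–43.3% in XY oocytes. The XO samples did not overlap with the others here, XO1 included, although the 95% Wilson interval of XO1, from 39 of 76 UMIs, ran from 40.3 to 62.2%. Tuba4a took 10.3–15.5% in XX and 7.22–9.66% in XY oocytes, and in XO oocytes its share was 15.8% in XO1 and 4.00 and 3.66% in XO2 and XO3. Among the beta tubulins, Tubb4b took 48.6–52.2% of the beta UMIs in XX oocytes, 38.5–46.0% in XO oocytes and 48.2–55.6% in XY oocytes, and Tubb2a took 18.4–20.4%, 19.8–21.9% and 13.9–17.6%, respectively. Tubb2b, Tubb5 and Tubb6 each had between 7.10 and 20.1%. These shares are descriptions and were not tested.

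XX and XO oocytes, which differ in the number of X chromosomes, were compared first. In edgeR's quasi-likelihood test, 8 of the 9 tested tubulins were lower in XX than in XO oocytes at an unadjusted p below 0.05, the threshold of the study at which a gene is here said to be called, against 16.7% of all tested genes that were lower and 18.1% that differed in either direction. The alpha tubulins had the larger differences. Tuba1c was 16.5-fold higher in XO oocytes (log2 fold change of XX over XO −4.04, SE 1.17, adjusted p = 0.203) and Tuba1b 14.7-fold higher (−3.87, SE 1.18, adjusted p = 0.203). Tuba1a was 6.34-fold higher (adjusted p = 0.257) and Tuba4a 3.97-fold higher (adjusted p = 0.27) in XO oocytes, but for both the sign turned with sva covariates and on batch-regressed values. With a sample left out, the log2 fold change was between −3.21 (without XO1) and −1.30 (without XO3) for Tuba1a and between −2.48 (without XO1) and −0.96 (without XO3) for Tuba4a. The samples of the genotypes overlapped for all 4 alpha tubulins, with XO1 below every XX sample for each of them.

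The beta tubulins Tubb2b (2.05-fold, adjusted p = 0.258), Tubb5 (1.95-fold, adjusted p = 0.243), Tubb2a (1.75-fold, adjusted p = 0.268) and Tubb6 (1.71-fold, adjusted p = 0.216) were also higher in XO oocytes, although the sign turned for Tubb2a and Tubb6 with spike-in totals as library sizes and for Tubb2a and Tubb2b on batch-regressed values. Tubb4b was 1.38-fold higher without passing the test (log2 fold change −0.47, SE 0.36, adjusted p = 0.478). For Tubb2a, Tubb5 and Tubb6 every XO sample was above every XX sample, a pattern in this direction that 13.6% of all tested genes shared. This separation depends on the scaling, which gave 0.517–0.565 normalized CPM per UMI in XO and 0.305–0.356 in XX samples. As a share of gene UMIs, XO1 was below every XX sample for Tubb2a and Tubb5, and XO2 was below XX3 for Tubb6. The median of all tested genes was itself lower in XX oocytes, by a log2 fold change of −0.46. Relative to that median, the difference was −3.59 for Tuba1c, −3.42 for Tuba1b, −2.21 for Tuba1a and −1.53 for Tuba4a, while it was between −0.58 and −0.32 for the 4 called beta tubulins and −0.01 for Tubb4b. The median over the 4 alpha tubulins was −3.27 and that over the 5 beta tubulins was −0.80, before this shift was taken off.

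After Benjamini-Hochberg adjustment over the 10993 tested genes, no tubulin and no other gene passed in this comparison in edgeR, where 1986 genes had an unadjusted p below 0.05. In DESeq2, 178 genes passed the adjustment, but its scaling factors were computed on genes and not on the spike-ins. The 2 counts thus differ in scaling as well as in the test. The calls depended on single samples. Leaving out XX1 left 1 called tubulin, XX2 or XX3 left 3, XO2 left 4, XO3 left 2, and XY2 or XY3, which enter only through the shared spread, left 4. Without XO1 all 9 tested tubulins were called, against 35.1% of all tested genes, and 6 of them passed the adjustment, against 22.7%. Tuba1c then had a log2 fold change of −4.60 (adjusted p = 0.00272) and Tuba1b of −4.43 (adjusted p = 0.00272), whereas Tubb4b was at −0.71 (adjusted p = 0.133). As XO1 was left out for its values, these adjusted p-values follow in part from that choice and do not hold as tests. Without XO3, Tuba1c was at −2.77 and Tuba1b at −2.66.

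With TMM factors computed on genes, with the spike-in totals as library sizes or with 2 surrogate variables of sva as covariates, only Tuba1b and Tuba1c were called, and DESeq2 called these and Tuba1a. On the batch-regressed log2 values of the authors Tuba1c stayed lower in XX oocytes (−0.66), Tubb4b was called in the opposite direction (0.50), and Tuba1b was not called. Tuba1c was lower in XX than in XO oocytes and called under all 16 alternatives, with log2 fold changes from −4.60 to −0.66. Tuba1b was called under 14 of 16, with log2 fold changes from −4.43 to −0.24, and it was at −0.95 with sva covariates.

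**Figure D3:**
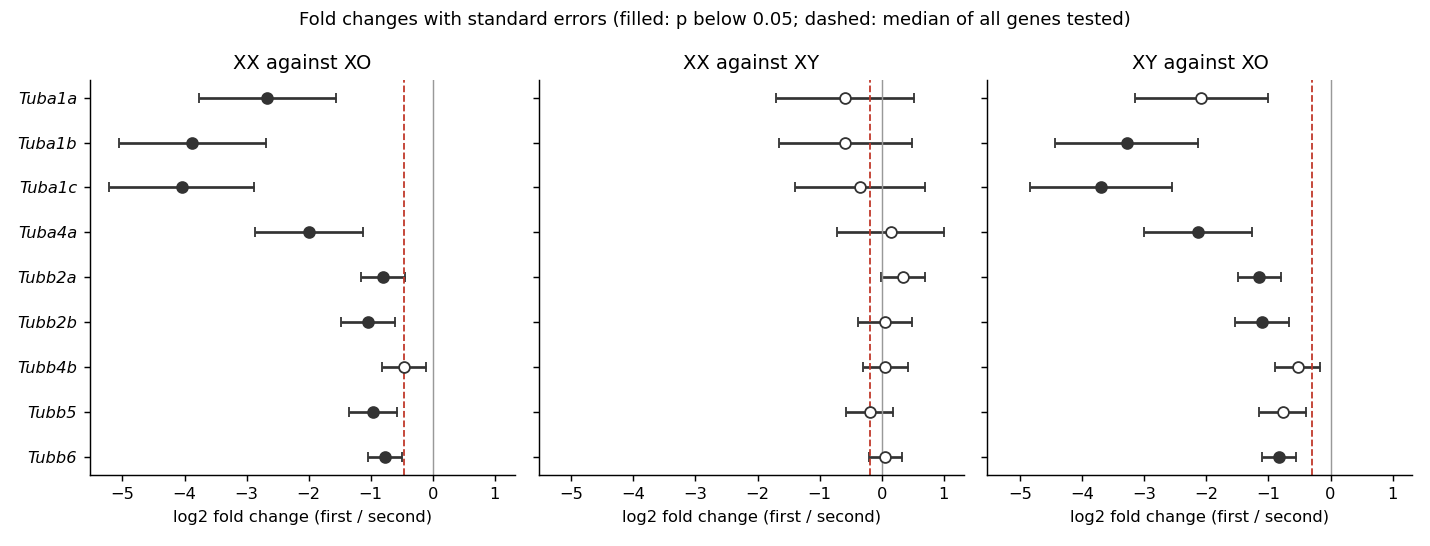
Log2 fold changes of the 9 tested tubulins with their standard errors from edgeR in the 3 comparisons. Filled points had an unadjusted p below 0.05, open points did not, and the dashed line is the median of all tested genes (−0.46, −0.19 and −0.30). In this fit the alpha tubulins lay farthest from that line in both comparisons with XO oocytes.

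XX and XY oocytes, which came from the same cross, were compared next. Whether the pools were matched by litter is not given in the sources used here, and the test was unpaired. None of the 9 tested tubulins was called, with 5.8% of all tested genes called and 9 genes (0.0819%) passing the adjustment, and each of the 9 overlapped between the genotypes. The adjusted p was 1 for each, and DESeq2 called none at an unadjusted p below 0.05 either. Log2 fold changes of XX over XY ranged from −0.59 for Tuba1b and Tuba1a (SE 1.07 and 1.11) to 0.34 for Tubb2a (SE 0.35). The standard errors of the alpha tubulins were between 0.87 and 1.11, so that differences of less than several fold were not detectable for them. For the beta tubulins they were between 0.27 and 0.43. With sva covariates Tuba4a (0.67) and Tubb2a (0.58) were called higher in XX oocytes, and on the batch-regressed values Tubb2a was (0.51).

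XY and XO oocytes each have a single X chromosome, and the comparison shares its XO samples with the first one. Lower levels in XY oocytes were called for 6 of the 9 tubulins, against 8.24% of all tested genes that were lower and 9.93% in either direction. Tuba1c was 13.0-fold higher in XO oocytes (log2 fold change of XY over XO −3.70, SE 1.15, adjusted p = 0.485), Tuba1b 9.75-fold (adjusted p = 0.485) and Tuba4a 4.39-fold (adjusted p = 0.491). Among the beta tubulins Tubb2a (2.21-fold, adjusted p = 0.485), Tubb2b (2.14-fold, adjusted p = 0.485) and Tubb6 (1.78-fold, adjusted p = 0.485) were called. Tubb5 (1.71-fold, adjusted p = 0.519), Tubb4b (1.44-fold, adjusted p = 0.6) and Tuba1a (4.22-fold, adjusted p = 0.524) were not. With the replicate number as a block, Tuba1a was called too (log2 fold change −1.95, adjusted p = 0.248), whereas its sign turned with sva covariates (0.28) and on batch-regressed values (0.45).

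Every XO sample was above every XY sample for Tubb2a and Tubb6, as for 6.34% of all tested genes in this direction. As a share of gene UMIs this held for Tubb6, whereas XO1 was below XY3 for Tubb2a. The median of all tested genes was −0.30, and relative to it Tuba1c was at −3.40, Tuba1b at −2.98, Tubb2a at −0.84 and Tubb4b at −0.23. No tubulin passed the adjustment, and 4 genes (0.0364%) did. Without XO1 all 9 tubulins were called, against 29.9% of all tested genes, and 6 passed the adjustment, against 10.5%, with log2 fold changes of −4.20 for Tuba1c (adjusted p = 0.00704) and −3.79 for Tuba1b (adjusted p = 0.00737). The limit on p-values without XO1 holds here too. The count was 3 without XO3 or without XY1, 1 without XY2 and 4 without XX1, XX3 or XO2. With the spike-in totals as library sizes only Tuba1b and Tuba1c were called, and Tuba1c was called under all 16 alternatives, with log2 fold changes between −4.30 and −0.56, while Tuba1b was at 0.066 and not called on the batch-regressed values.

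Markers of oocytes differed between the same samples in part. Of 14 oocyte genes, 9 were higher in both XO2 and XO3 than in the other 7 samples, beside 31.9% of all tested genes. Lowest in XO1 were 7 of the 14, beside 26.5%. The summed level of the 14 genes was 28911–31602 normalized CPM in XX oocytes, 19704–60648 in XO oocytes and 21178–30321 in XY oocytes. Zp3, which codes for a protein of the zona pellucida, was at 64.5, 49.0 and 155 normalized CPM in XX oocytes, 12.4, 341 and 570.2 in XO oocytes and 21.8, 73.6 and 169 in XY oocytes. Nobox, a transcription factor of oocytes, was at 62.0, 67.2 and 109 in XX oocytes, 56.4, 522 and 1138 in XO oocytes and 51.6, 91.8 and 185 in XY oocytes. Both thus ordered the samples much as the alpha tubulins did. Others did not, since Oosp1 was highest in XO1 (9137 normalized CPM) and at 2494 and 2495 in XO2 and XO3, and Ddx4 was at 608 in XO1 and 438 and 420.0 in XO2 and XO3. The part of these markers in the tubulin differences was not tested.

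Of the markers of other ovarian cells, Fshr of granulosa cells and Pecam1 of endothelium were the only ones higher in both XO2 and XO3 than in the other 7 samples. They were 1 of 8 granulosa and 1 of 4 endothelial genes, beside 31.9% of all tested genes. Pecam1 was at 31.0, 18.6 and 48.4 normalized CPM in XX oocytes, 14.5, 109 and 132 in XO oocytes and 21.8, 31.9 and 56.7 in XY oocytes, and Fshr had 31 UMIs over all 9 samples. Kitl of granulosa cells was instead at 8.28, 5.69 and 9.60 normalized CPM in XO oocytes and 17.1, 14.0 and 19.2 in XX oocytes. The share of all tested genes with lower values in all XO samples was not computed. The endothelial genes Cdh5 and Kdr had at most 1 UMI in XO2 and in XO3. The summed level of 8 granulosa genes was 48.0–66.7 normalized CPM in XX oocytes, 55.9–67.2 in XO oocytes and 56.6–92.1 in XY oocytes, and Amhr2, Inha and Fst had at most 3 UMIs over all 9 samples. Among the 5 theca and stroma genes the sum did not exceed 3.92 normalized CPM, and Col1a1, Tagln and Cyp17a1 had at most 3 UMIs in all. The 4 endothelial genes summed to 26.6–58.5 normalized CPM in XX oocytes, 20.7–146 in XO oocytes and 37.6–69.4 in XY oocytes, and 3 leukocyte genes to 7.70–14.9, 0.518–22.6 and 3.25–13.0, with Cd68 and Lyz2 at 3 UMIs or fewer in all. The part of these cells in the tubulin differences was not tested.

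Of the other tubulins in the count table, the delta tubulin Tubd1, known from centrioles, was at 192, 196 and 216 normalized CPM in XX oocytes, 61.6, 231 and 251 in XO oocytes and 171, 273 and 241 in XY oocytes, and so above every beta tubulin in each sample. The alpha-like Tubal3 was at 50.6, 49.7 and 48.1 in XX oocytes, 20.2, 36.2 and 46.9 in XO oocytes and 28.4, 45.9 and 44.7 in XY oocytes, without being called. The epsilon tubulin Tube1 was between 2.10 and 9.60 normalized CPM. Tuba3a, Tuba3b and the neuronal Tubb3 had 29, 2 and 61 UMIs in all and did not pass the filter. Of the 4 tested genes of this list, Tubg2 was called, at 6.01-fold higher in XO than in XX oocytes (adjusted p = 0.233), where 18.1% of all tested genes were called. Tubb1, Tubb4a and Tuba8 were not analysed here.

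Newly made tubulin is folded with the help of the chaperonin CCT, prefoldin and tubulin cofactors. Of 21 such genes 17 were tested, and Tcp1, a subunit of CCT, was the only one called, lower in XX (log2 fold change −0.93, adjusted p = 0.203) and in XY (−0.67, adjusted p = 0.487) than in XO oocytes, beside 18.1 and 9.93% of all tested genes called in these comparisons. It was at 68.0, 59.2 and 59.1 normalized CPM in XX oocytes, 117, 97.2 and 141 in XO oocytes and 86.0, 61.9 and 75.8 in XY oocytes, with XO1 above all XX and XY samples. The median log2 fold change of this list for XX over XO was −0.58, near the −0.46 of all genes. Without XO1, 10 of 18 tested folding genes were called lower in XX oocytes, beside 35.1% of all tested genes called in either direction.

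Of 17 genes for the gamma-tubulin complex and its recruitment, 12 were tested and 3 were called lower in XX and in XY than in XO oocytes, beside 16.7 and 8.24% of all tested genes called lower. Tubgcp2, a core subunit, was at 9.62, 8.75 and 8.84 normalized CPM in XX oocytes, 3.62, 38.8 and 58.1 in XO oocytes and 6.97, 7.49 and 9.96 in XY oocytes (XX over XO −1.88, adjusted p = 0.234, and XY over XO −2.03, adjusted p = 0.485). XO1 was the lowest sample here, as for Tuba1b. Nedd1, which brings the complex to spindle poles, had log2 fold changes of −0.86 (adjusted p = 0.264) and −0.998 (adjusted p = 0.485), and Haus4, a subunit of augmin, −1.11 (adjusted p = 0.239) and −1.04 (adjusted p = 0.491).

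Of 22 genes that modify tubulin, 10 were tested. Ttll1, which adds glutamate chains, and Agbl5, which removes glutamate, were lower in XX than in XO oocytes (−1.08, adjusted p = 0.203, and −2.04, adjusted p = 0.234). Agtpbp1, another deglutamylase, was lower in XX than in XY oocytes (−0.87, adjusted p = 0.56). It was at 103, 111 and 93.5 normalized CPM in XX and 187, 189 and 184 in XY oocytes. Of 15 tested genes for microtubule stability and severing, Map2 and Clasp1 were lower in XX than in XO oocytes (−1.40, adjusted p = 0.203, and −1.57, adjusted p = 0.203), and Map2 was also lower in XX than in XY oocytes (−1.04, adjusted p = 0.611). The 2 called of 10 and 2 called of 15 stand beside 16.7% of all tested genes lower in XX than in XO oocytes. The 1 called in each list for XX against XY stands beside 5.8% called in either direction. Without XO1, 4 of 12 genes of the gamma-tubulin complex, 3 of 10 of tubulin modification and 7 of 15 of microtubule stability were called lower in XX than in XO oocytes. Of all tested genes, 35.1% were then called in either direction, and the share called lower in XX oocytes was not computed. None of these lists had a member called higher in XX oocytes, and no member passed the adjustment in any comparison.

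Cells with excess free tubulin degrade tubulin messages during translation through Ttc5, Scaper and Cnot11. All 3 were tested and none was called. Ttc5, which binds the nascent tubulin, was at 2.85, 3.50 and 8.23 normalized CPM in XX oocytes, 6.73, 7.75 and 16.4 in XO oocytes and 6.51, 8.14 and 5.43 in XY oocytes (XX over XO −1.06, adjusted p = 0.299). Scaper was between 44.5 and 68.9 and Cnot11 between 28.3 and 53.1 normalized CPM in all samples.

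Tubb5 and Ppia, the cyclophilin A gene, were candidates of the study for scaling quantitative RT-PCR, and the authors picked both from these libraries for steady and high expression. They then chose Ppia because its quantitative RT-PCR values were relatively even over the growth of XY oocytes, a measure that is not examined here. Ppia was at 45.6, 38.2 and 28.0 normalized CPM in XX oocytes, 69.9, 57.4 and 163 in XO oocytes and 46.9, 39.1 and 45.6 in XY oocytes. It was lower in XX than in XO oocytes (log2 fold change −1.37, adjusted p = 0.203), and XY oocytes were lower than XO oocytes as well (−1.14, adjusted p = 0.485), without overlap of the samples in either case. As a share of gene UMIs, however, XO2 was below XX1 for Ppia. Tubb5 was called in the first of these comparisons only, as given above, and whether the 2 comparisons differ for it was not tested. The coefficient of variation was 44.3% for Tubb5 and 68.4% for Ppia, higher than for 53.2 and 80.2% of tested genes. Of other common reference genes, Actb had 17.7%, Actg1 43.9% and Gapdh 196%. Gapdh was higher in XO2 and XO3 (34.6 and 167 normalized CPM) than in XO1 (1.55), as the alpha tubulins were. It was called lower in XX than in XO oocytes (log2 fold change −4.05, adjusted p = 0.203) and in XY than in XO oocytes (−2.72, adjusted p = 0.501). Actb was between 23.5 and 42.0 in all 9 samples and was not called in any comparison.

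The ratio of Tubb5 to Ppia UMIs within a sample does not depend on scaling. On the log2 scale it was −1.48, −1.64 and −1.10 in XX oocytes, −2.08, −0.96 and −2.19 in XO oocytes and −1.57, −1.91 and −1.09 in XY oocytes. The means were −1.40 ± 0.28 in XX oocytes, −1.74 ± 0.68 in XO oocytes and −1.52 ± 0.41 in XY oocytes (SD, n = 3). The difference was 0.34 between XX and XO (p = 0.5), 0.12 between XX and XY (p = 0.8) and 0.22 between XY and XO oocytes (p = 0.6) in exact two-sided permutation tests, each with an adjusted p of 0.8 over the 3 comparisons. With 3 against 3 samples the smallest p is 0.1. The spread within XO oocytes was thus larger than any difference between genotypes.

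**Figure D4:**
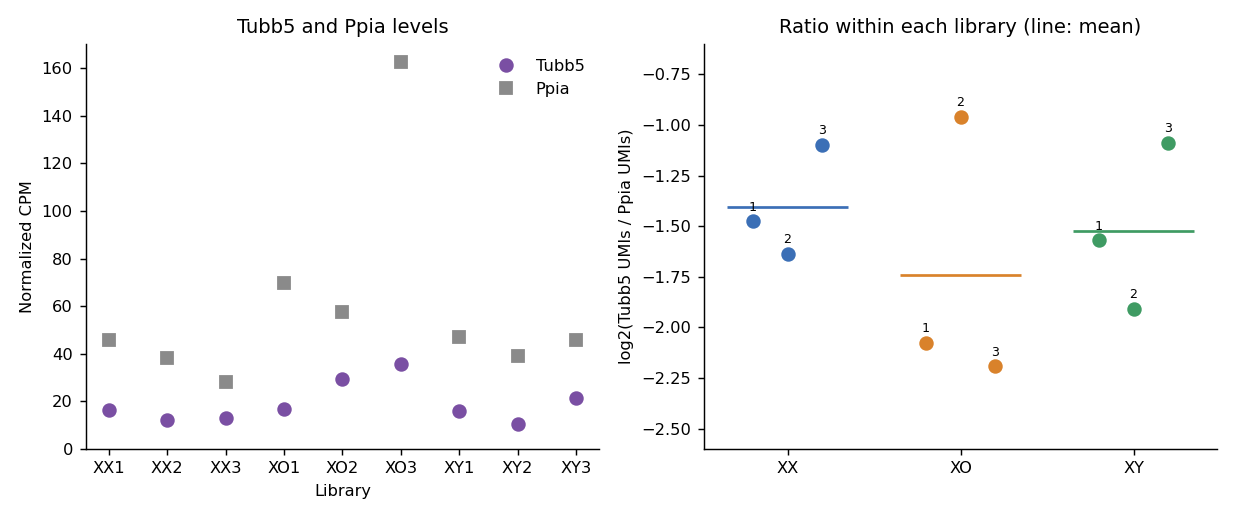
Left, normalized CPM of Tubb5 and Ppia in each sample. Right, log2 ratio of their UMIs with the replicate number and the mean of each genotype (line). Ppia reached 163 normalized CPM in XO3, and the ratio was −2.08, −0.96 and −2.19 in the 3 XO samples.

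The genes with the level pattern nearest to the most abundant alpha tubulin and to Tubb5 were taken from 7261 tested genes whose mean reached 10 normalized CPM, by Pearson's r of log2(normalized CPM + 1) over the 9 samples. For Tuba1c these were Aurka (r = 0.998), Tbp (0.997), Nobox, A430033K04Rik and Cwc15 (0.996 each). Aurka, a mitotic kinase that acts at spindle poles, was at 17.1, 18.9 and 34.4 normalized CPM in XX oocytes, 14.5, 158 and 347 in XO oocytes and 17.7, 25.1 and 45.9 in XY oocytes. For Tubb5 they were Bptf (r = 0.983), Npc1 (0.982), Zmym1 (0.980), Senp7 (0.978) and Ttc28 (0.977). Among the tubulins, r was 0.992 for Tuba1b and Tuba1c and between 0.365 and 0.555 for Tubb6 with Tuba1a, Tuba1b, Tuba1c, Tuba4a or Tubb4b. All these coefficients are over 9 samples of 3 genotypes that share the gap between XO2, XO3 and the rest, and they are descriptions.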

How the data were processed

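Smart-seq3 libraries were made from pooled oocytes with ERCC spike-in RNA, and reads were aligned by the authors to the mouse genome GRCm38 and Gencode transcripts, with HISAT2 (versions are not given in the sources used here). The deposited table of counts holds raw 5′ UMI counts per gene, with 79 spike-ins and 1 further row that names no gene and holds no counts, and it was the input of all tests. The deposited normalized values, a signal that equals UMI counts scaled with spike-in factors by the authors, were matched by TMM factors on the spike-ins times gene totals. The deposited log2 values had batch effects regressed out by the authors with sva and were used in an alternative only. An XO column without a number was taken as replicate 1, since the other XO columns carry 2 and 3.

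edgeR 4.0.16 (R 4.3.3) was used to fit 1 mean per genotype to all 9 samples, with quasi-likelihood F tests after filterByExpr, which left 10993 genes and 9 of the 10 tubulins. A gene was called at a two-sided unadjusted p below 0.05, the threshold of the study, and Benjamini-Hochberg adjusted p-values are over all genes tested. Fold changes are fitted values on the log2 scale, with a SE for each. The study used surrogate variables as covariates, and here they are an alternative, as they are estimated from the same 9 samples. In simulated counts with 200 changed genes for XX against XO, run on 10993 genes, 91.2% of the changed genes that were tested and 4.79% of unchanged genes were called. Whether these shares hold for differences of the size seen in the tubulins, or for the spread of the XO samples, was not tested. DESeq2 1.42.0, limma 3.58.1 and sva 3.50.0 served for alternatives. Total UMIs set the precision of counts, and intervals and limits cover counting error only.

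Samples with equal replicate numbers in XY and XO deviated together (r = 0.830, 0.278 and 0.773 over 10993 genes), whereas those in XX and XO did not in every pair (0.468, −0.447 and 0.679), nor did those in XX and XY (0.435, −0.060 and 0.726). What the numbers stand for is not given in the sources used here, so p-values measure the spread between these samples. No pair of replicates agreed within sampling noise.

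The tubulins and gene lists were chosen with earlier results of these data known. Named besides the tubulins were Ppia, Actb, Actg1 and Gapdh, the other tubulins, the autoregulation genes, up to 4 called genes per list and comparison with the largest change, the 5 genes nearest in level pattern to Tubb5 and to the alpha tubulin of highest mean, Y-linked genes and cell type markers. Levels of markers and genes of lists that are named in addition were chosen after their values were seen. Alternatives to the test, scaling, filter and covariates and the omission of each sample were run, and leaving out samples for the tubulin shares was added after the data were seen.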

Additional observations from a re-analysis of the deposited data

How the results depend on the processing

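Each comparison was repeated under 16 alternatives, of which 9 left out a sample. For XX against XO, 8 tubulins were called, and 2 with TMM factors on genes, 2 with spike-in totals, 2 with sva covariates, 3 with DESeq2 and 2 with limma on batch-regressed values, and 1 to 9 when a sample was left out. For XX against XY none was called, and 2 with sva covariates, 1 with limma and 0 with any sample left out. For XY against XO, 6 were called, and 2 with spike-in totals and 1 to 9 with a sample left out. With the replicate number as a block, 8, 0 and 7 tubulins were called in the 3 comparisons, with Tuba1a in XY against XO as the only call that the pairing changed.

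The median log2 fold change of all genes moved with the scaling, for XX against XO from −0.46 to −0.11 with TMM, 0.42 with spike-in totals, 0.01 with sva covariates and 0.28 with limma. Directions of XX over XO turned with spike-in totals for Tubb6 (0.13), Tubb4b (0.39) and Tubb2a (0.10), with sva covariates for Tuba4a (0.10), Tubb4b (0.36) and Tuba1a (0.51), and with limma for Tuba4a (0.23), Tubb4b (0.50), Tubb2b (0.072), Tubb2a (0.10) and Tuba1a (0.51). For XX over XY they turned with TMM for Tubb5 (0.0087), with spike-in totals for Tubb5 (0.38), Tuba1b (0.018) and Tuba1c (0.32), with sva covariates for Tubb5 (0.17), Tuba1b (0.014), Tuba1c (0.21) and Tuba1a (0.23), and with limma for Tuba1a (0.057). For XY over XO they turned with sva covariates for Tubb4b (0.045) and Tuba1a (0.28), and with limma for Tuba1b (0.066), Tubb4b (0.30) and Tuba1a (0.45). The cause was not tested.

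With a sample left out, XX over XY ranged from −1.05 to 0.61 for Tuba1a, −0.97 to 0.14 for Tuba1b, −0.83 to 0.35 for Tuba1c, −0.37 to 1.06 for Tuba4a, −0.16 to 0.42 for Tubb2b, −0.040 to 0.23 for Tubb4b, −0.44 to 0.11 for Tubb5 and −0.090 to 0.20 for Tubb6. The log2 ratio of Tubb5 to Ppia differed by 0.12 to 0.73 between XX and XO, by −0.075 to 0.33 between XX and XY and by −0.0029 to 0.61 between XY and XO. The mean alpha share was 32.0–41.0% in XX oocytes, 51.6–85.2% in XO oocytes and 35.7–49.3% in XY oocytes with a sample left out, and 48.5% in XX with all annotated tubulins. At 12 UMIs over all samples, depth left no statement on Tubg1 differences.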
